A study of Mus musculus with 8 samples.

Results

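The Hox genes of the 4 mammalian clusters were described across mouse cecal tumors in which the transcription factor gene Etv1 had or had not been ablated. Members were all rows of the deposited expression table whose gene name was Hoxa, Hoxb, Hoxc or Hoxd followed by a paralog number. There were 40 such rows and, after the 2 Hoxa3 rows were summed, 39 genes of 34586 gene symbols in the table. All 39 were kept whatever their level, and no value of theirs had failed in the authors' estimation.

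The tumors resembled gastrointestinal stromal tumor (GIST), a sarcoma of the gut wall related to the pacemaker cells of gut muscle, known as interstitial cells of Cajal. They were taken from the cecum of C57BL/6 mice that were Kit V558Delta/+ and Etv1 flox/flox and also carried Rosa26 CreERT2/CreERT2. The Kit allele is an activating deletion in the receptor tyrosine kinase that drives GIST. The Etv1 alleles carry loxP sites, and the recombinase CreERT2, expressed from the broadly active Rosa26 locus and not from a promoter of 1 cell type, enters the nucleus when tamoxifen is given. Both groups carried all 3 alleles: 4 tumors came from vehicle-treated and 4 from tamoxifen-treated mice, and the design asks how the tumor transcriptome differs with and without Etv1 ablation. Exposure to tamoxifen itself and recombination of Etv1 cannot be told apart in this design, because the controls received only vehicle. Of age, dose and time since treatment, none is given in the sources used here. The labels number the tumors within each group but do not say whether each came from a separate mouse, so the spread behind every p-value is that between these tumors and may be technical.

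Hox genes encode homeodomain transcription factors that give cells along the body axis their regional address. Within each cluster the genes lie in the order of their paralog numbers, and low numbers are active toward the head while high numbers are active toward the tail. The mesenchyme and smooth muscle of the gut keep a regional Hox code into adult life, and the cecum forms from a bud at the border of midgut and hindgut where genes of the Hoxd cluster are known to be required.

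Expression was given as FPKM, the number of fragments per kilobase of transcript scaled to the depth of the library, so levels can be compared between genes. The relative sequencing depth of the 8 libraries, read from the smallest steps between values, spanned 1.42-fold, and 14176 to 14841 symbols reached 1 FPKM in a library. Etv1 was at 34.6 to 51.1 FPKM in vehicle and 17.4 to 34.9 FPKM in tamoxifen tumors, with the groups overlapping (exact 2-sided permutation p = 0.0571, n = 4 and 4). The exons between the loxP sites were not given in the sources used here, so this level checks the labels only in part. Kit (386 to 892 FPKM) and Ano1 (372 to 603 FPKM), which define interstitial cells of Cajal, were high in all 8 libraries, as the tumor label requires. These were whole tumors: summed markers of intestinal epithelium, the mucosal lining, were 1468 to 2255 FPKM in vehicle and 2361 to 4525 FPKM in tamoxifen, without overlap, and 1 of 11 epithelial markers passed the test (Krt18, higher). Lgals4, Car1 and Krt19 led that sum, and 10 of the 11 had positive differences. Slc26a3 had a negative one, at 30.5 to 80.0 against 9.18 to 40.2 FPKM. Endothelial markers were 39.9 to 49.7 against 66.6 to 91.2 FPKM (3 of 5 higher: Pecam1, Tek and Emcn), and fibroblast markers 447 to 775 against 644 to 1250 FPKM (0 of 7 called). Leukocyte markers were 164 to 210 against 197 to 441 FPKM (Ly6g higher and Cd3e lower of 8), smooth muscle 206 to 397 against 330 to 425 FPKM (0 of 8), enteric neurons 129 to 170 against 59.0 to 138 FPKM (0 of 6 tested). Of the 8 leukocyte markers 3 had positive and 5 negative differences. Ly6g, at 0.274 to 3.58 against 97.9 to 170 FPKM, made up a large part of the treated leukocyte sum. Ptprc was lower, at 36.0 to 49.3 against 15.3 to 32.9 FPKM, without overlap. The neuron sum was mostly Hand2 and Ret, and the other 4 tested neuron markers had positive differences. The interstitial cell list itself was at 1492 to 2213 against 1088 to 1547 FPKM (1 of 7 lower, Edn3), and enteric glia and mesothelium summed to at most 11.2 and 17.4 FPKM in any library. Beside these counts, 2.38% of all 15023 tested genes were called higher and 3.07% lower. No marker was at 0 in all libraries, and the part these cell types had in the values below was not tested. In such bulk samples fewer cells of a type and less RNA per cell cannot be told apart.

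Most Hox RNA of the tumors came from middle and posterior genes of the Hoxa and Hoxd clusters. Of the 39 genes, 11 had a mean of at least 10 FPKM over the 8 libraries, 17 lay between 1 and 10, 4 between 0.1 and 1, and 7 below 0.1. Hoxa10, a patterning factor of the caudal trunk, was first in both groups, with 64.5, 65.3, 62.0 and 60.9 FPKM in vehicle replicates 1 to 4 and 62.6, 50.0, 70.0 and 59.3 in tamoxifen replicates 1 to 4. Its vehicle values lay inside its tamoxifen range, and the means were 63.2 ± 2.06 (SD, n = 4) and 60.4 ± 8.30 FPKM, a difference smaller than the spread of the treated tumors. Hoxd10 followed at 42.8 ± 5.06 and 49.0 ± 11.3 FPKM. After it Hoxa9, Hoxd8 and Hoxd9 had 8-library means of 39.1, 37.0 and 35.0 FPKM, and the ranges of Hoxd10, Hoxa9, Hoxd8 and Hoxd9 overlapped, so neighbors in that order did not differ beyond their spread. Hoxa11, Hoxa7, Hoxd4, Hoxa5, Hoxd11 and Hoxa3 made up the rest of the genes above 10 FPKM. The 4 highest genes held 48.3% of the summed Hox FPKM in vehicle and 45.8% in tamoxifen tumors.

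Hoxa10 and Hoxa5 are shown by the bases upstream of their start sites. Hoxa10 was chosen because it led the code. Hoxa5 was the only Hox gene above 1 FPKM, of those with an entry, whose upstream bases held the ETS motif CGGAAG. The sequences are those of RefSeq on GRCm38.p6, 250 bases upstream of the start, from the minus strand, at chr6:52240855-52241104 for Hoxa10 and chr6:52204588-52204837 for Hoxa5. This build is not that of the expression table, and the bases stand for the genes only.
Hoxa10: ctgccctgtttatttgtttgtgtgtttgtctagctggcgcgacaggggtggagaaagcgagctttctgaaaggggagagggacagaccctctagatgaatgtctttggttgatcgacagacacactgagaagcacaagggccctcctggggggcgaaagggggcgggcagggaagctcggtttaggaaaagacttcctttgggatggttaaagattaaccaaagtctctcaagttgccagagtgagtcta
Hoxa5: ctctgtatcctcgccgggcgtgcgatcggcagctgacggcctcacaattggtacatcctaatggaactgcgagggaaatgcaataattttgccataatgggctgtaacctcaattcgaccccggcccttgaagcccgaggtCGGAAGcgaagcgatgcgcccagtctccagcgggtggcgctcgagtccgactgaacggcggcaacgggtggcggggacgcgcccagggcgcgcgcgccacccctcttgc
Capitals mark CGGAAG, a motif that ETS factors such as Etv1 bind, searched on both strands while other forms of the ETS motif were not searched. It was in the upstream bases of 2 of 24 promoters (22 Hox genes had an entry), those of Hoxa5 and Hoxd1, and in 13.6% of all 32851 promoters. Hoxa5 was at 14.9 ± 2.66 FPKM in vehicle and 15.2 ± 1.76 FPKM in tamoxifen tumors (log2 difference 0.04 ± 0.14 SE, adjusted p = 0.892, limma), and Hoxd1 was at most 0.0509 FPKM in any library. Hox upstream bases were rich in CpG, with a median of 12.5 CpG pairs in 250 bases against 6 over all promoters. A match to a motif is a description of letters and says nothing of binding.

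Along the clusters, the highest levels lay at paralogs 8 to 11, and levels did not rise evenly with paralog number. Groups 3 to 7 summed to 17.4 to 21.0 FPKM in vehicle tumors, with no order. Genes of paralogs 9 to 11 held 61.4% of summed Hox FPKM in vehicle and 61.1% in tamoxifen tumors, paralogs 1 to 8 held 38.4% and 38.5%, and paralogs 12 and 13 held 0.139% and 0.389%. Paralog group 10 was the largest, at 118.0 ± 7.92 and 116.2 ± 19.2 FPKM, followed by group 9 at 76.2 ± 13.6 and 91.5 ± 4.86 FPKM, group 8 at 44.7 ± 4.78 and 34.7 ± 3.26 FPKM, and group 11 at 41.9 ± 9.51 and 37.3 ± 20.3 FPKM. In the Hoxa cluster, on chromosome 6 (52112350 to 52210874 in mm9 from Hoxa2 to Hoxa13), the step was steep: Hoxa11 averaged 22.9 FPKM and its neighbor Hoxa13, the marker of the most distal hindgut, 0.925 FPKM. In the Hoxd cluster, on chromosome 2 (74506367 to 74603200), Hoxd11 averaged 13.5 FPKM while Hoxd12 stayed at or below 0.0303 and Hoxd13 at or below 0.1497 FPKM. Hoxb13, another gene of the distal hindgut, was listed at 0 in all 8 libraries, and Hoxc12 and Hoxc13 did not exceed 0.0349 FPKM. At the other end levels were mixed. Hoxa3, Hoxd3 and Hoxa2 had 8-library means of 10.8, 8.43 and 5.60 FPKM, while Hoxb1 was at most 0.0435, Hoxb2 0.0586 to 0.224, and Hoxd1 at most 0.0509 FPKM.

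**Figure D1:**
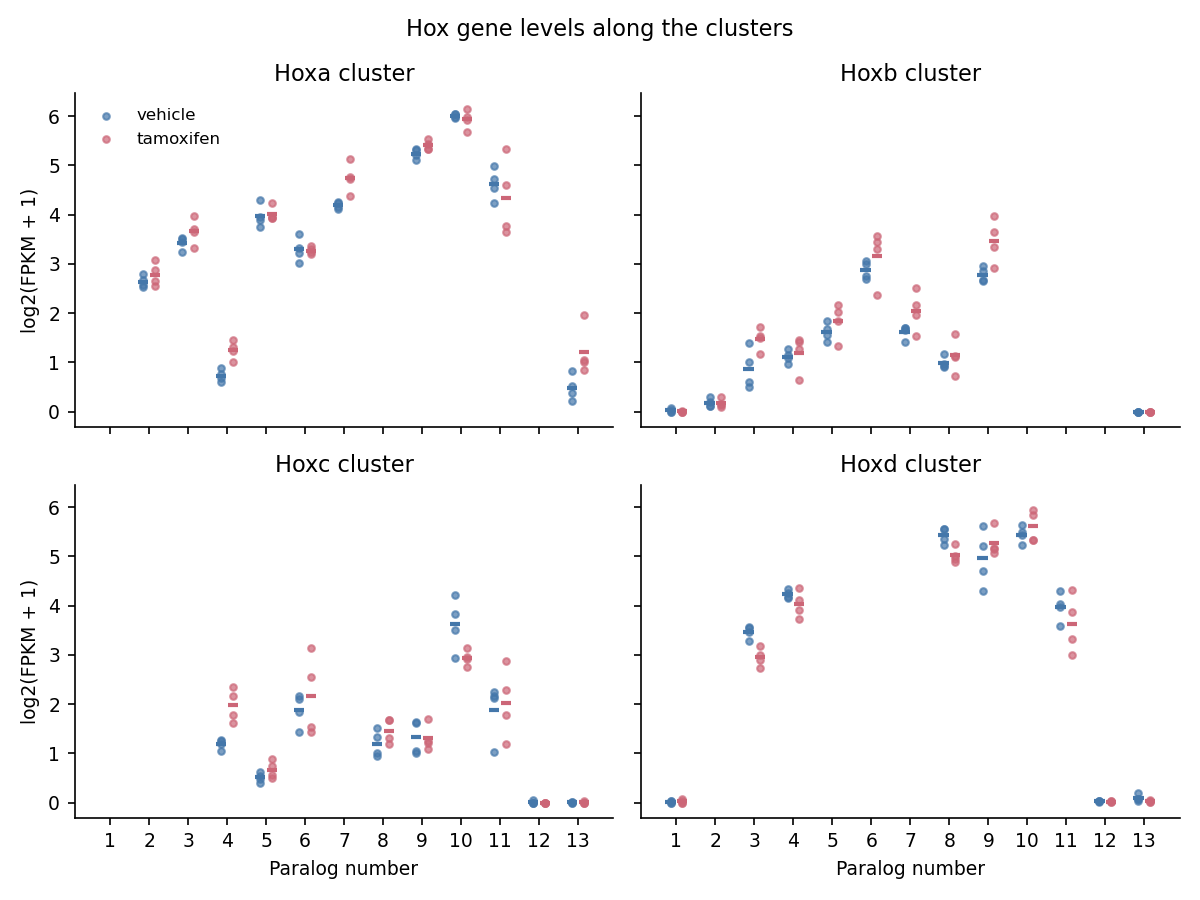
Level of Hox genes on a log2(FPKM + 1) axis against paralog number, 1 panel per cluster. Points are libraries (blue vehicle, red tamoxifen, 4 each) and short lines are group means. Paralog 10 is the highest point of the Hoxa, Hoxc and Hoxd panels and paralog 11 lies below it, Hoxa4 is far under its neighbors, and most Hoxb and Hoxc genes lie lower.

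The clusters were used unequally. Hoxa genes held 47.5% of summed Hox FPKM in vehicle and 48.9% in tamoxifen tumors, and Hoxd genes 41.6% and 38.3%. Hoxb genes, on chromosome 11 (96055630 to 96229570), held 5.15% and 7.45%, and Hoxc genes, on chromosome 15 (102751534 to 102867274), 5.77% and 5.37%. Within Hoxb the highest genes were Hoxb9 (5.89 ± 0.736 and 10.4 ± 3.44 FPKM) and Hoxb6 (6.40 ± 0.924 and 8.42 ± 2.96 FPKM), and within Hoxc only Hoxc10 exceeded 8 FPKM in any library (11.998 ± 4.62 and 6.73 ± 0.854 FPKM). The same paralog number therefore stood at very different levels by cluster: in vehicle tumors Hoxa9 was at 36.8 ± 2.73, Hoxd9 at 32.0 ± 12.9, Hoxb9 at 5.89 ± 0.736 and Hoxc9 at 1.56 ± 0.607 FPKM. Paralog 4 was similar, with Hoxd4 at 17.8 ± 1.16 FPKM against 0.664 ± 0.145 for Hoxa4, 1.17 ± 0.189 for Hoxb4 and 1.29 ± 0.166 for Hoxc4. Summed over all 39 genes the level was 383.5 ± 30.6 FPKM in vehicle and 398.7 ± 34.8 FPKM in tamoxifen tumors, ranges that overlapped. The spread of the Hox genes between tumors of a group was close to that of other genes, with a median coefficient of variation of 16.6% and 23.2% in vehicle and tamoxifen against 15.9% and 22.9% over all tested genes.

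**Figure D2:**
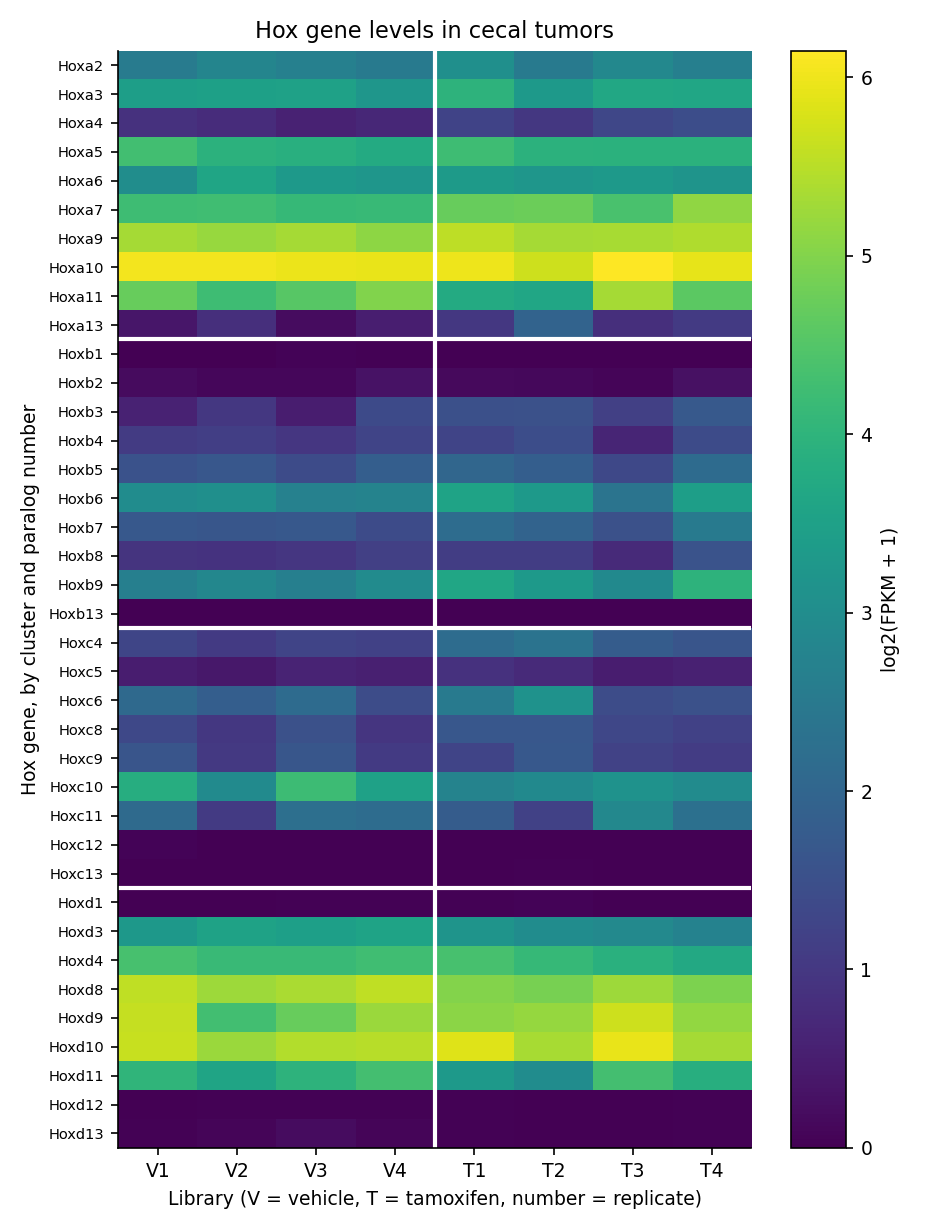
Level of Hox genes (rows, by cluster and paralog number) in the 8 libraries (columns V1 to V4 vehicle, T1 to T4 tamoxifen), colored by log2(FPKM + 1). The brightest rows are Hoxa10, Hoxd10, Hoxa9, Hoxd8 and Hoxd9, and Hoxa10 and Hoxd10 rank first and second on both sides of the white line.

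Neighboring Hox genes overlap in their transcripts, and 26 of the 39 shared a locus with another gene in the deposited table. Hoxa2 to Hoxa7 formed 1 such block, Hoxc5 to Hoxc10 another, and Hoxd3, Hoxd4 and Hoxd8 the third large block. Within a block the split of fragments between genes came from the authors' estimation, and their levels are less certain than those of single genes such as Hoxa10, Hoxd9, Hoxb9 and Hoxc4. Whether counting used strand was not given in the sources used here, so reads of a Hox gene and of an antisense gene over it cannot be told apart.

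Between treatments, 1 of the 28 Hox genes tested passed the threshold: Hoxc4, a factor of the cervical and thoracic range at a low level here, rose. The other 11 had a mean under 1 FPKM and were not tested. That 1 of 28 (3.57%) stood beside 5.45% of all 15023 genes tested that were called in either direction, 2.38% higher and 3.07% lower, so the Hox genes were not called more often than other genes. All 28 had log2 differences of FPKM + 1 within 1, a size that 7.17% of all tested genes exceeded. The added 1 FPKM shrinks differences of low genes. With 0.1 FPKM added in its place, Hoxc4 had a log2 difference of 1.13 and Hoxb3 of 1.09. The median log2 difference was 0.16 for the 28 and 0.0054 for all tested genes, and 19 were positive and 9 negative, where 50.6% of all tested genes were positive. With every library scaled to the same total FPKM, 21 of the 28 were positive, Hoxa6 and Hoxc9 having turned. At an unadjusted p under 0.05 there were 8 Hox genes, 5 higher and 3 lower, against 22.4% of all genes tested.

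Hoxc4 was at 1.43, 1.06, 1.39 and 1.28 FPKM in vehicle replicates 1 to 4 and at 3.504, 4.11, 2.46 and 2.07 FPKM in tamoxifen replicates 1 to 4. Every treated tumor exceeded every control, and the 4 treated values spanned more than the controls. The means were 1.29 ± 0.166 and 3.03 ± 0.939 FPKM (SD, n = 4), a ratio of 2.35. On the log2(FPKM + 1) scale, which understates changes of low genes, the difference was 0.79 ± 0.19 (SE), with an adjusted p of 0.0489 by limma. The call was lost when any library but tamoxifen replicate 4 was left out (adjusted p 0.0555 to 0.119), and 0.0322 was reached without that one. It was also lost without a filter on low genes (adjusted p 0.0779) and with equal totals (0.175). Hoxc4 had a locus of its own, at 102849367 to 102867274 on chromosome 15. In both groups its libraries ranked as did the summed fibroblast markers: tamoxifen replicates 2, 1, 3 and 4 had 1250, 882, 780 and 644 FPKM of those, and vehicle replicates 1, 3, 4 and 2 had 775, 743, 658 and 447 FPKM. This match was chosen after the values were seen. In the tamoxifen tumors no single marker of the 7 had that order. Dcn was highest in replicate 2 and lowest in replicate 3 (531 and 81.5 FPKM). Col1a2 was highest in replicate 3 and lowest in replicate 1 (435 and 191 FPKM). The part of fibroblasts in the Hoxc4 values was not tested.

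**Figure D3:**
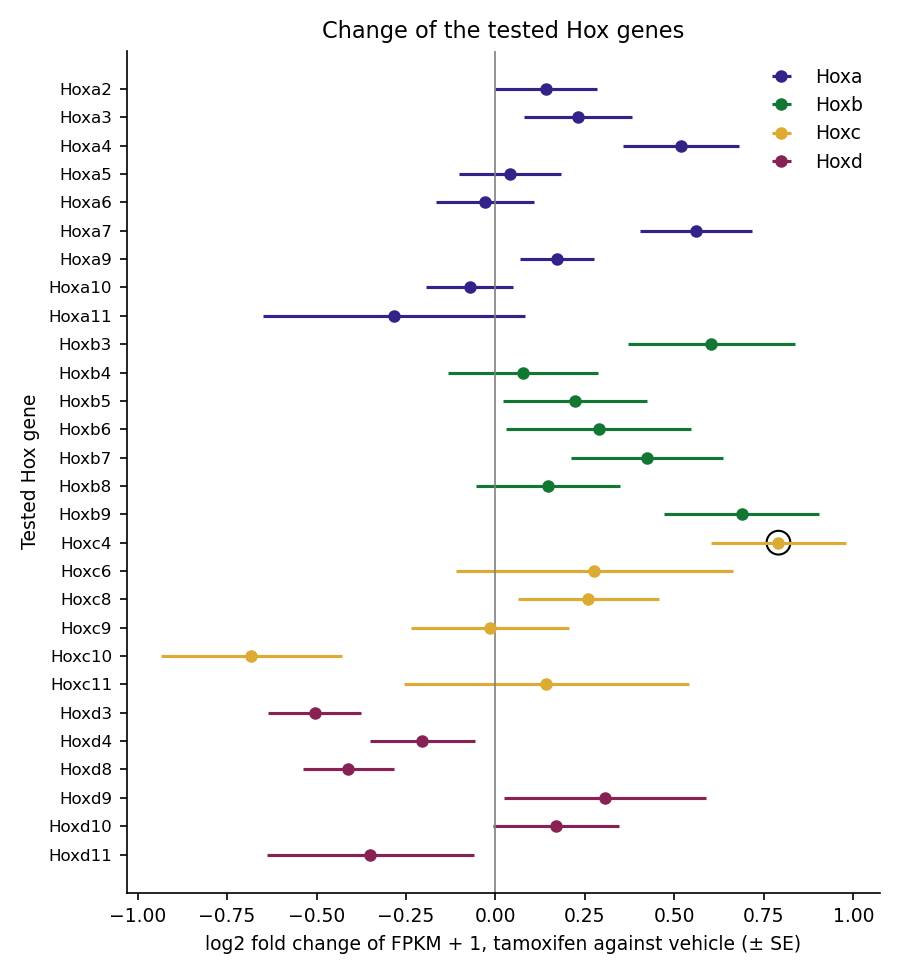
Log2 difference of FPKM + 1, tamoxifen against vehicle, with its SE for the 28 tested Hox genes, colored by cluster. The black ring marks Hoxc4, the gene past the threshold, and all 7 Hoxb points lie right of 0 while 4 of 6 Hoxd points lie left of it.

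Groups without overlap were found for 4 of the 28 tested genes, against 15.1% of all tested genes (7.37% higher, 7.74% lower). Hoxc4, Hoxa7 and Hoxa4 were the higher ones and Hoxd3 the lower one. Hoxa7, a thoracic patterning factor, was at 17.9, 18.1, 16.3 and 16.7 FPKM in vehicle and 25.3, 26.2, 19.9 and 34.0 FPKM in tamoxifen tumors, with the lowest treated value just above the controls. Its log2 difference of 0.56 ± 0.16 (SE) did not pass (adjusted p = 0.0753, limma), though it did without tamoxifen replicate 3 (0.0317) and with libraries weighted by quality (0.0382). These were the only 2 of 18 alternative fits in which Hoxa7 passed, and with equal totals the adjusted p was 0.289 by limma. Hoxa4 was at 0.511 to 0.846 FPKM against 1.01 to 1.73 FPKM, a log2 difference of 0.52 (adjusted p = 0.103, limma). Hoxd3, a patterning factor of the neck region, was at 8.68, 10.6, 10.01 and 10.9 FPKM in vehicle and 8.10, 7.003, 6.49 and 5.66 FPKM in tamoxifen tumors. Its lowest control and highest treated values, both replicate 1, lay close together. The log2 difference was -0.51 ± 0.13 (SE) with an adjusted p of 0.0602 by limma, and it passed under median ratio scaling (0.0337), with quality weights (0.0401) and without tamoxifen replicate 1 (0.0489). Hoxd3 passed in no other of the 18 alternative fits, and its adjusted p was 0.617 by limma with equal totals. Among the genes too low to be tested, Hoxa13 (0.160 to 0.771 against 0.783 to 2.91 FPKM) also did not overlap. It was highest in tamoxifen replicate 2, and its treated mean of 1.44 ± 0.990 FPKM stayed far below that of Hoxa11.

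All 7 tested Hoxb genes had positive log2 differences, 0.08 to 0.69, and none passed the test. All 7 were also positive under both other scalings. Without tamoxifen replicate 2, 6 of the 7 were positive. Hoxb9, the posterior Hoxb gene with the highest level, was at 5.33, 6.18, 5.26 and 6.80 FPKM in vehicle and 11.5, 9.11, 6.57 and 14.6 FPKM in tamoxifen tumors. Only tamoxifen replicate 3 fell within the control range, and without it the gene passed (adjusted p = 0.0345 by limma, against 0.104 with all 8 libraries). That was the only pass of Hoxb9 in 18 alternative fits, where its adjusted p reached 0.256 by limma with equal totals. Hoxb3 (0.887 ± 0.555 and 1.80 ± 0.423 FPKM) and Hoxb7 (2.08 ± 0.290 and 3.24 ± 1.181 FPKM) followed with log2 differences of 0.60 and 0.42 (adjusted p = 0.173 and 0.282, limma). Summed Hoxb was at 17.1 to 21.3 FPKM in vehicle and, in tamoxifen replicates 1 to 4, at 33.4, 28.3, 16.6 and 38.8 FPKM. The third of these was below every control and the other 3 were above every control. Summed epithelial markers in the same 4 libraries were 4300, 2728, 2361 and 4525 FPKM, in the same order of libraries, an observation made after the values were seen. In vehicle replicates 1 to 4 the orders differed, with Hoxb at 19.2, 21.0, 17.1 and 21.3 FPKM and epithelial markers at 2208, 2255, 1468 and 2005 FPKM. The part of epithelium in the Hoxb values was not tested.

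No other gene of the Hoxc and Hoxd clusters passed, and their differences went both ways. Hoxc10, the main Hoxc gene, was at 13.3, 6.67, 17.6 and 10.4 FPKM in vehicle and 5.78, 6.51, 7.84 and 6.81 FPKM in tamoxifen tumors. Vehicle replicate 2 lay among the treated tumors, and the log2 difference of -0.68 ± 0.25 (SE) did not pass (adjusted p = 0.155, limma). Hoxd8 was at 36.9 to 46.4 FPKM against 28.5 to 37.2 FPKM, a log2 difference of -0.41 ± 0.13 (SE, adjusted p = 0.09997, limma). The tamoxifen replicate 3 value of Hoxd8 just exceeded the lowest control. Because Hoxd8 carried most of its paralog group, group 8 held 11.2% to 12.4% of summed Hox FPKM in vehicle and 8.40% to 8.97% in tamoxifen tumors, without overlap. Hoxd9 and Hoxd10, by contrast, had positive differences of 0.31 and 0.17 (adjusted p = 0.560 and 0.609, limma), with vehicle values of Hoxd9 ranging from 18.6 to 48.0 FPKM. For the remaining Hox genes the adjusted p was above 0.36.

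Hoxa11 and Hoxd11 had the highest coefficients of variation between the treated tumors, 59.1% and 44.1%, among the 11 genes of at least 10 FPKM. Hoxa11 was at 25.4, 17.9, 22.4 and 30.7 FPKM in vehicle and at 12.7, 11.5, 39.2 and 23.4 FPKM in tamoxifen replicates 1 to 4, and Hoxd11 at 15.4, 11.01, 14.6 and 18.8 FPKM and at 8.95, 6.98, 19.0 and 13.6 FPKM. Both were lowest in tamoxifen replicates 1 and 2 and highest in replicate 3, so the treated range contained the whole control range. Their log2 differences were -0.28 ± 0.37 and -0.35 ± 0.29 (SE, adjusted p = 0.684 and 0.519, limma). Identifiers in the sample descriptions fell in 2 ranges, below 1900 for vehicle replicates 1 to 3 and tamoxifen replicates 1 and 2, and above it for the other libraries. Below 1900 Hoxa11 averaged 21.9 FPKM in vehicle and 12.1 FPKM in tamoxifen, and above it 30.7 FPKM (1 library) and 31.3 FPKM. On log2(FPKM + 1) of these means the differences below and above 1900 were -0.81 and 0.03 for Hoxa11, -0.71 and -0.20 for Hoxd11, 0.83 and 0.05 for Hoxc6, and 1.07 and 0.52 for Hoxc4. Neuron markers, led by Hand2, Ret and Uchl1, were at 71.3, 59.0, 138.0 and 94.3 FPKM in tamoxifen replicates 1 to 4, in the order of Hoxa11, which vehicle tumors did not share (142, 129, 170 and 141 FPKM in replicates 1 to 4), and their part in it was not tested.

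**Figure D4:**
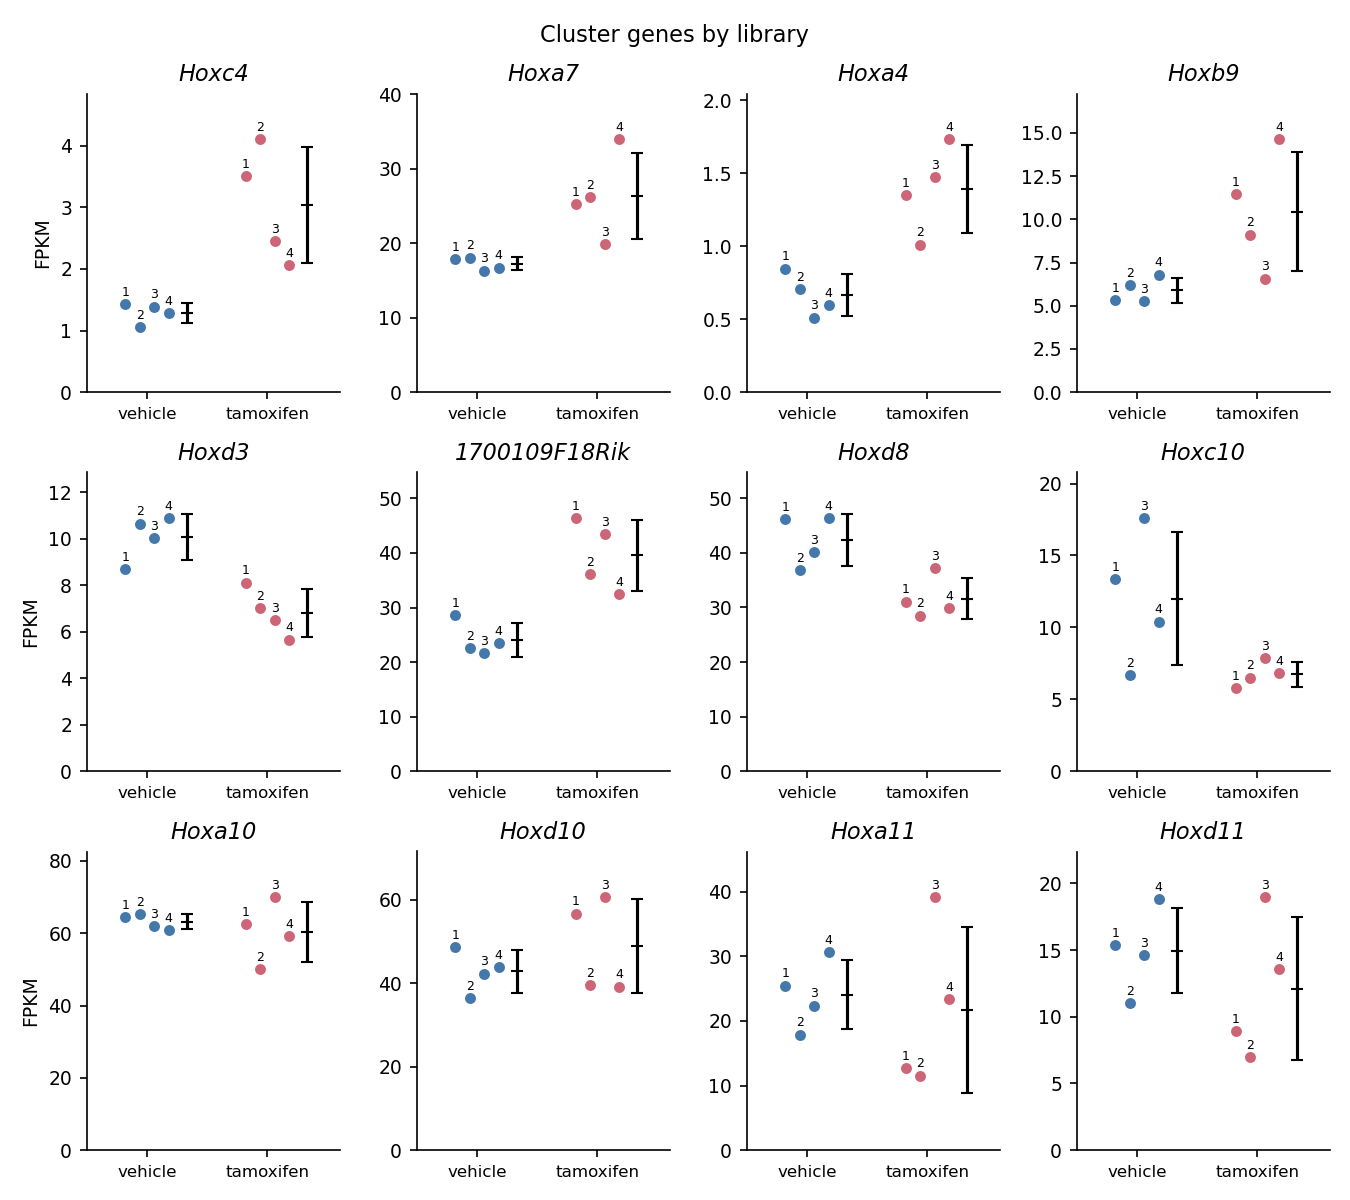
FPKM of 12 genes of the Hox clusters in each tumor (blue vehicle, red tamoxifen, numbers are replicates), with the mean and SD of each group in black. Hoxc4, Hoxa7, Hoxa4 and 1700109F18Rik separate upward and Hoxd3 downward, Hoxa10 and Hoxd10 overlap, and Hoxa11 and Hoxd11 have tamoxifen replicates 1 and 2 lowest.

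Other genes inside the clusters were then read. Between the first and last Hox gene of each cluster lay 28 other symbols, 22 of which had a current name by gene identifier. Of these 28, 18 were tested and 1 passed, where 5.45% of all tested genes did: 1700109F18Rik, now Hoxd3os1, a long noncoding RNA antisense to Hoxd3. It was at 28.6, 22.5, 21.6 and 23.5 FPKM in vehicle and 46.4, 36.1, 43.5 and 32.4 FPKM in tamoxifen tumors, with no overlap. The means were 24.1 ± 3.12 and 39.6 ± 6.48 FPKM and the log2 difference 0.69 ± 0.15 (SE, adjusted p = 0.0363, limma). The call was lost in 6 of the 8 fits that left out 1 library (adjusted p 0.0622 to 0.110) and held without vehicle replicate 1 (0.0464) or tamoxifen replicate 4 (0.0296). It ended with equal totals (0.230) and with no filter on low genes (0.0515). The RNA and Hoxd3 differed in opposite directions while sharing a locus, 74541305 to 74586331 on chromosome 2, with Hoxd4, Hoxd8 and Mir10b. In GENCODE M21 their exons overlap on opposite strands over 347 bases, 12.1% of the antisense RNA. Exons of Hoxd4 overlap those of the antisense RNA by as many bases. The log2 difference of Hoxd4 was -0.20 (adjusted p = 0.458, limma).
The 250 bases upstream of the antisense start are shown because it was the only cluster gene besides Hoxc4 to be called, from RefSeq on GRCm38.p6, minus strand, chr2:74716131-74716380, with none of the motifs searched.
Hoxd3os1: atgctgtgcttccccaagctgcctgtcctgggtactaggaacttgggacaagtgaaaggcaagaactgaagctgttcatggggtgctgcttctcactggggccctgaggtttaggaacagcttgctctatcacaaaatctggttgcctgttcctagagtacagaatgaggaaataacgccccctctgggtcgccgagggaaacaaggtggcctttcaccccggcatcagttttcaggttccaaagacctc

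In the tamoxifen tumors, several noncoding neighbors had the library order of a Hox gene in their locus. The part of reads shared between them was not tested. Gm15050 and 5730596B20Rik, in the block of Hoxa2 to Hoxa7, had the order of Hoxa2 and Hoxa3. Hoxb3os had the order of Hoxb2, a gene of very low level. Hoxa11as (now Hoxa11os), which shares 800 exonic bases with Hoxa11, was at 22.6, 19.4, 43.0 and 25.9 FPKM in tamoxifen replicates 1 to 4, lowest and highest in the same libraries as Hoxa11. In vehicle it was at 37.3, 22.0, 33.4 and 27.9 FPKM, highest in replicate 1 where Hoxa11 was highest in replicate 4. Gm20440, in the locus of Hoxd10 and Hoxd11, was at 31.2, 25.9, 64.9 and 42.0 FPKM, again in the order of Hoxd11, and in vehicle at 57.7, 39.1, 56.9 and 56.2 FPKM, which was not that order. Gm15051 (now Hotairm1), a noncoding RNA of the Hoxa cluster that is known from myeloid cells, was at 4.54 ± 2.16 and 6.42 ± 1.11 FPKM (adjusted p = 0.333, limma). Gm16258 (now Hotair), the Hoxc noncoding RNA, averaged 0.852 and 0.886 FPKM and was under the filter. Hoxb3os was at 2.19 ± 0.571 and 3.68 ± 0.996 FPKM (adjusted p = 0.168, limma), and 2700086A05Rik (now Hoxaas3) at 2.92 ± 0.810 and 4.58 ± 1.24 FPKM (adjusted p = 0.189, limma).

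The clusters also hold microRNA genes that are known to target Hox messages, miR-10 and miR-196. Their mature sequences are shown because the table lists several genes of each family and members of a family share 1 seed. Capitals mark the seed, bases 2 to 8 from the 5′ end, in sequences from RefSeq.
mmu-miR-10a-5p: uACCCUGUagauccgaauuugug
mmu-miR-10b-5p: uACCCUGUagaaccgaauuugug
mmu-miR-196a-5p: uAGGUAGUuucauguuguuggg
mmu-miR-196b-5p: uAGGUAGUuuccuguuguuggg
Counted from the 5′ end, miR-10b differs from miR-10a by U12A and miR-196b from miR-196a by A12C, both outside the seed. The table lists hairpin genes, not mature RNAs, and FPKM of a gene this short rests on few fragments. Mir196a-1 was listed at 246 to 374 FPKM in vehicle and 113 to 457 FPKM in tamoxifen tumors (adjusted p = 0.679, limma). Mir10b, in the Hoxd3 and Hoxd4 locus, was listed at 0 in replicate 3 of each group and at 59.9 to 205 FPKM in the other libraries. Mir196b and Mir196a-2 were listed at 0 in all 8 libraries, and Mir10a averaged 0 and 0.088 FPKM.

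Hox proteins bind DNA together with TALE homeodomain cofactors of the Pbx, Meis and Pknox (Prep) families. Of 8 cofactor genes, all tested, 1 rose and none fell past the threshold, where 2.38% of all tested genes rose and 3.07% fell. Their median log2 difference was -0.18 beside 0.0054 for all tested genes. The gene that rose was Pknox2, which was low, at 1.10, 0.608, 0.876 and 0.6999 FPKM against 1.53, 2.37, 3.43 and 2.504 FPKM, and its log2 difference was 0.91 ± 0.20 (SE, adjusted p = 0.0384, limma). Every treated tumor exceeded every control. The call held in 1 of the 8 fits without a library (without tamoxifen replicate 1, adjusted p = 0.0298, otherwise 0.0581 to 0.1003). It was lost with equal totals (0.0957), without the filter (0.0540) and with the identifier range as a covariate (0.0502).

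The most abundant cofactors were Meis genes, which stabilize Hox and Pbx on DNA. Meis2 was at 86.2 to 144 FPKM in vehicle and 71.4 to 126 FPKM in the 3 tamoxifen tumors with an estimate, the value of tamoxifen replicate 1 having failed. Meis1 was at 74.1, 77.5, 79.8 and 63.5 FPKM against 59.4, 41.5, 51.0 and 33.1 FPKM, without overlap. Its log2 difference of -0.69 ± 0.18 (SE) did not pass (adjusted p = 0.0676, limma), though it did without tamoxifen replicate 1 (0.0445), under median ratio scaling and with libraries weighted by quality. These were the only 3 of 18 alternative fits in which Meis1 passed, and with equal totals the adjusted p was 0.487 by limma. Pknox1 had -0.51 (adjusted p = 0.0815), Meis3 0.07 (0.871), Pbx2 -0.18 (0.372), Pbx3 0.03 (0.927) and Pbx4 -0.19 (0.572) by limma. Pbx3 turned slightly negative under median ratio scaling. The Pbx and Hox composite motif TGATTNAT, searched on both strands, was in the upstream bases of 2 of 24 Hox promoters, those of Hoxd11 and Hoxa2, and in 2.82% of all promoters. The Hoxa2 bases are shown with the match in capitals, on the opposite strand, at chr6:52164832-52165081 (GRCm38.p6, minus strand).
Hoxa2: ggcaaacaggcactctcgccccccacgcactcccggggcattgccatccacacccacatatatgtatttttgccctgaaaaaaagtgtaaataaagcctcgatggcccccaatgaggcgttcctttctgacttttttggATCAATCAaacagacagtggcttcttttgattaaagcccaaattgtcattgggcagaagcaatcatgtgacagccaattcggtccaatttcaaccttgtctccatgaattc
Hoxa2, a hindbrain patterning gene, was at 5.25 ± 0.541 and 5.94 ± 1.15 FPKM (adjusted p = 0.601, limma).

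**Figure D5:**
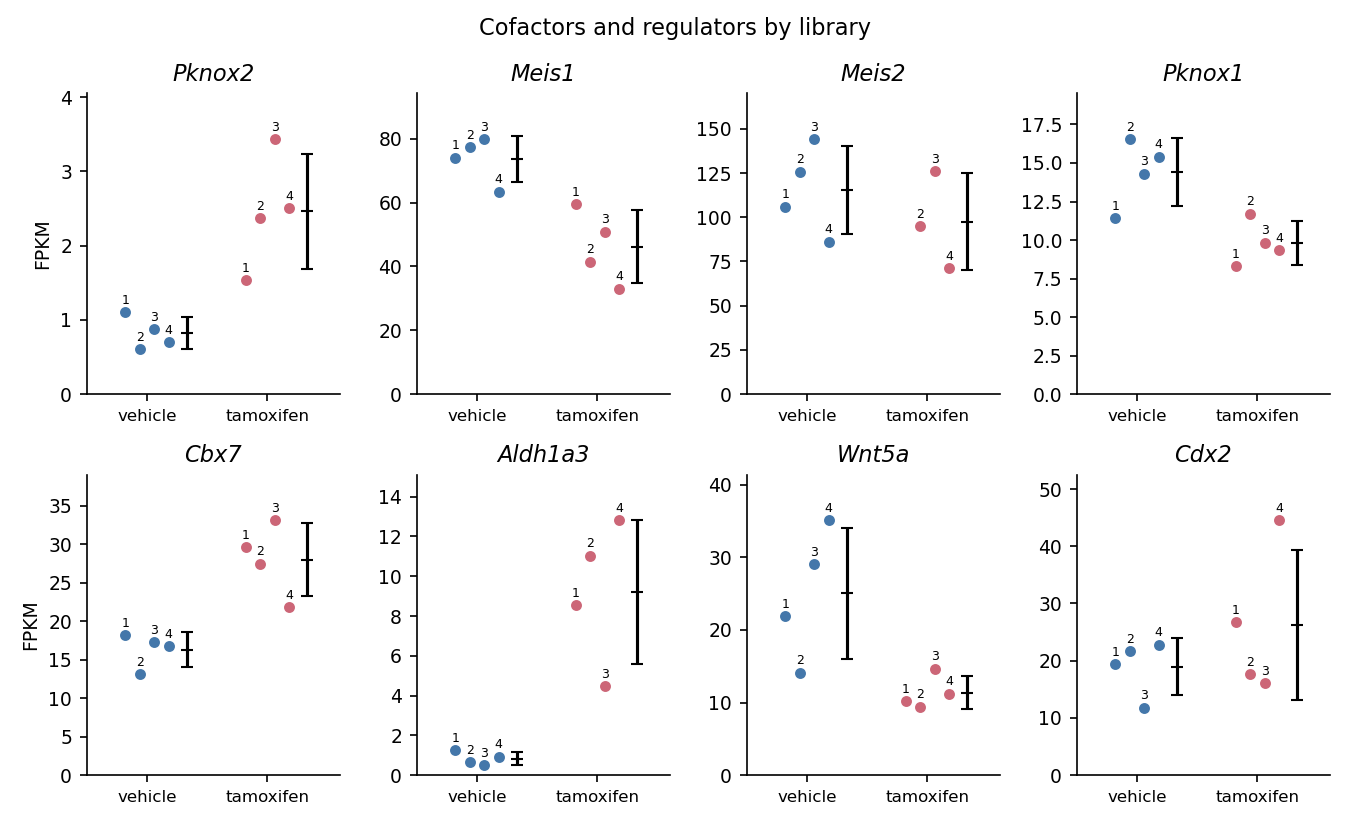
FPKM of Hox cofactors (Pknox2, Meis1, Meis2, Pknox1) and regulators (Cbx7, Aldh1a3, Wnt5a, Cdx2) in each tumor, blue vehicle and red tamoxifen with the replicate number, and the mean and SD in black. Meis2 has 3 tamoxifen values because that of replicate 1 failed, and Aldh1a3 shows the widest separation.

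Other factors of position along the gut were then read from lists. None of 5 stomach and foregut factors reached the filter: Barx1, Sox2 and Pdx1 averaged at most 0.113 FPKM in either group, Gata4 0.437 and 0.753 FPKM, and Nkx3-2 1.28 and 0.486 FPKM. Of 6 hindgut and cecal bud factors read from the table (Prac1 was not matched), 5 were tested and none passed, with a median log2 difference of -0.36. Fgf10, the growth factor of the cecal bud, was at 55.9 ± 15.9 and 56.3 ± 12.3 FPKM. Nkx2-3, a factor of intestinal mesenchyme, was at 45.5 ± 6.90 and 36.3 ± 12.3 FPKM, and Bmp4 at 34.4 ± 8.87 and 39.6 ± 10.5 FPKM. Pitx1, a hindlimb and hindgut factor, was at 26.2 ± 6.92 and 18.6 ± 8.37 FPKM. Tlx2 averaged at most 0.0844 FPKM. Wnt5a was the most different of the list, at 21.9, 14.1, 29.0 and 35.1 FPKM in vehicle and 10.2, 9.42, 14.7 and 11.2 FPKM in tamoxifen tumors. The groups overlapped through vehicle replicate 2, and the log2 difference of -1.02 ± 0.27 (SE) had an adjusted p of 0.0655 by limma, of 0.0340 without that replicate and of 0.0334 with the identifier range as a covariate. Wnt5a passed in no other of the 18 alternative fits, and its adjusted p was 0.252 by limma with equal totals.

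Cdx factors, which activate Hox genes in the embryo and keep intestinal identity in the adult epithelium, did not pass the test. Cdx1 was at 20.5 ± 5.01 and 19.0 ± 7.43 FPKM and Cdx2 at 18.9 ± 4.97 and 26.3 ± 13.1 FPKM (adjusted p = 0.783 and 0.537, limma). Both were highest in tamoxifen replicate 4, at 30.1 and 44.5 FPKM, the library with the most epithelial marker RNA. Cdx4, Evx1 and Evx2, the last 2 being the homeobox genes beyond the posterior ends of Hoxa and Hoxd, averaged at most 0.237 FPKM.

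Polycomb proteins keep Hox genes silent and Trithorax proteins keep them active. Of 22 Polycomb genes 21 were tested, 1 rose and none fell, a share near the 5.45% called over all tested genes, with a median log2 difference of -0.02. The gene that rose was Cbx7, a Polycomb subunit that reads a repressive histone mark, at 18.2, 13.1, 17.3 and 16.8 FPKM against 29.6, 27.5, 33.1 and 21.8 FPKM (log2 difference 0.74 ± 0.16 SE, adjusted p = 0.0354, limma). The groups did not overlap. It passed in 1 of 8 fits without a library (without tamoxifen replicate 4, 0.0229, otherwise 0.0572 to 0.0873) and not with equal totals (0.231) or without the filter (0.0531). The most abundant members, Rbbp7 (95.7 ± 9.27 and 113 ± 19.1 FPKM), Rbbp4 (91.6 ± 3.74 and 97.9 ± 8.46 FPKM) and Phc2 (70.2 ± 18.5 and 41.7 ± 13.03 FPKM), had adjusted p of 0.390, 0.646 and 0.126 by limma. Of 12 Trithorax and activator genes none passed, with a median of 0.02. Psip1 was at 50.5 ± 5.43 and 37.8 ± 5.69 FPKM, Dpy30 at 37.3 ± 3.10 and 37.0 ± 6.36 FPKM, and Wbp7, now Kmt2b, at 24.8 ± 2.03 and 29.7 ± 8.44 FPKM.

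Retinoic acid is a signal that opens the anterior ends of the Hox clusters in development. Of 15 genes for its synthesis, transport, breakdown and receptors, 9 were tested, 1 rose and none fell, where 2.38% of all tested genes rose, with a median log2 difference of 0.20 beside 0.0054. Aldh1a3, an enzyme that makes retinoic acid, was at 1.25, 0.658, 0.499 and 0.932 FPKM in vehicle and 8.55, 11.03, 4.46 and 12.8 FPKM in tamoxifen tumors. The groups lay far apart, with a log2 difference of 2.41 ± 0.29 (SE, adjusted p = 0.00700, limma). It passed in all 8 fits without a library and with equal totals. It was highest in tamoxifen replicate 4, as were Krt18 at 147 FPKM and the epithelial sum, whose part in this difference was not tested. The receptors did not pass, Rara, Rarb, Rarg, Rxra and Rxrb having adjusted p of 0.593 to 0.905 by limma. Dhrs3, the most abundant member at 102 ± 20.9 and 134 ± 39.4 FPKM, and Aldh1a1 at 24.2 ± 8.56 and 34.8 ± 11.5 FPKM had adjusted p of 0.453 and 0.345 by limma.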

How the data were processed

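RNA-seq libraries of 4 vehicle and 4 tamoxifen tumors were compared. The authors deposited 1 table of FPKM for 37980 rows, with a status per value. The submitters' processing notes name STAR 2.3, Cufflinks, Cuffdiff and mm9, without their roles; annotation, strand setting and scaling were not given in the sources used here. Cufflinks shares fragments between overlapping genes, so levels inside a shared locus depend on its estimation. Rows were summed per symbol and 178 failed values were set to missing. Genes with a mean of at least 1 FPKM and at least 2 estimates per group (15023) were fitted with limma 3.58.1 in R 4.3.3 (trend, 2-sided, all 8 libraries) on log2(FPKM + 1), and p-values were adjusted by Benjamini and Hochberg with a threshold of 0.05. FPKM hold no counts, so no counting interval was given. In simulated data of 14757 genes for this comparison, 59% of changes of 1 on the log2 scale and 98% of changes of 2 were recovered, with 8 false among 165 calls. The changes were placed only in genes with a mean log2(FPKM + 1) above 2, a mean that Hoxc4 and Pknox2 did not reach. On that scale all 28 tested Hox differences were within 1, so these shares do not carry over to them. The rule named every Hox gene, all cofactor and gut position factors, called or 3 most abundant members of the chromatin and retinoic acid lists, and other genes inside the clusters. Some items are not reported here, and cofactor, hindgut and retinoic acid lists were counted without them. The Hox genes, lists and markers were chosen with earlier results of these data known. Alternatives covered pseudocounts, filters, scaling, the replicate number as a block, the identifier range, variance models and leaving out each library. Promoter and microRNA sequences came from RefSeq (GRCm38.p6), with exons from GENCODE M21.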

Additional observations from a re-analysis of the deposited data

Results flagged for a closer look

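In 3 of 56 groups of 4 values (28 tested Hox genes in 2 groups), 1 tumor lay far from the other 3 by Dixon's criterion, and chance flags about 1 in 20 such groups. Hoxa5 was at 17.9 FPKM in tamoxifen replicate 1, where the other treated tumors were at 14.2 to 14.5 FPKM, though vehicle replicate 1 reached 18.6 FPKM. Hoxc11 was at 1.05 FPKM in vehicle replicate 2, where the other controls were at 3.34 to 3.73 FPKM. Hoxd9 was at 50.0 FPKM in tamoxifen replicate 3, where the other treated tumors were at 32.6 to 35.0 FPKM, and the controls ranged from 18.6 to 48.0 FPKM.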

How the results depend on the processing

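Of all tested genes 819 were called (358 higher, 461 lower), and 534 were with a mean of at least 5 FPKM, 617 with no filter, 228 with equal totals and 268 to 856 without 1 library. The equal-total split was 153 higher and 75 lower (67.1% higher against 43.7%). Summed FPKM, which sets that scaling, was 1.66e+06 in vehicle replicate 1 and 901764 to 1.31e+06 in the other libraries. Factors of median ratio scaling were 0.967 to 1.073. The replicate number as a block gave 252 calls and 0 Hox calls, and under it 1700109F18Rik (adjusted p = 0.0612), Pknox2 (0.0908) and Cbx7 (0.0671) did not pass. Deviations from the group mean had correlations of -0.157, -0.00211, 0.145 and 0.0629 between libraries with the same number. Between libraries with different numbers they were -0.145 to 0.151. These values cannot tell whether the number marks pairs. Hox genes called were 1, and 0 with a mean of at least 5 FPKM or equal totals, 2 with median ratio scaling, 3 with quality weights and 0 to 2 without 1 library. Hoxc4 is under the minimum of 5 FPKM and was not tested there. TALE cofactors called were 1, and 0 with no filter, equal totals, the block, a mean of at least 5 FPKM or the identifier range as a covariate, 2 with quality weights or median ratio scaling and 0 to 2 without 1 library. Polycomb genes called were 1, and 0 with no filter, equal totals or the block, 3 with the identifier range and 0 to 1 without 1 library. Of the hindgut list 1 was called with the identifier range and 0 to 1 without 1 library, and of the retinoic acid list 1 in all and 2 with no filter. The causes of these shifts were not tested. Log2 ratios of summed levels without 1 library were 0.06 to 0.17 for Hoxa, 0.36 to 0.76 for Hoxb, -0.23 to 0.16 for Hoxc and -0.17 to 0.01 for Hoxd. Differences that turned sign in any setting had adjusted p above the threshold there. With equal totals Hoxa6 had 0.023, Hoxc9 0.023, Dpy30 0.036 and Gm14396 0.048. With the identifier range Hoxc11 had -0.052, Hoxc9 0.073 and 5730596B20Rik -0.015. With quality weights Hoxc11 had -0.075, Hoxc9 0.020, Fgf10 -0.068 and 5730596B20Rik -0.057. With median ratio scaling Pbx3 had -0.0071 and Fgf10 -0.0073, and with a pseudocount of 0.1 FPKM 0610040B09Rik had -0.00086. Without 1 library the log2 difference of Hoxa10 ranged from -0.15 to 0.014, Hoxa5 -0.033 to 0.15, Hoxa6 -0.12 to 0.076, Hoxb4 -0.0091 to 0.26, Hoxc11 -0.14 to 0.42, Hoxc6 -0.048 to 0.52 and Hoxc9 -0.14 to 0.090. The same ranges were -0.063 to 0.13 for Pbx3, -0.078 to 0.17 for Meis3, -0.16 to 0.18 for Fgf10, -0.11 to 0.061 for Dpy30, -0.090 to 0.26 for 5730596B20Rik, -0.016 to 0.20 for Gm15050, -0.41 to 0.59 for 0610040B09Rik, -0.040 to 0.22 for Gm11539, -0.28 to 0.033 for Gm53, -0.60 to 0.064 for Mir196a-1, -0.035 to 0.10 for 6720416L17Rik, -0.17 to 0.16 for Gm14396 and -0.58 to 2.78 for Mir10b.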
